A study of Homo sapiens with 4 samples.

Results

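The nuclear genes of the mitochondrial respiratory chain and ATP synthase were followed in 2 human lung cancer cell lines. Genes were chosen by name: the NDUFA, NDUFB, NDUFC, NDUFS and NDUFV genes of complex I, SDHA to SDHD of complex II, CYC1 and the UQCR genes of complex III, the COX4I to COX8 genes of complex IV and the ATP5 genes of ATP synthase. Complex I assembly factors, names with a hyphen and names of pseudogene form were left out. This gave 89 of the 58174 genes in the table, and 81 of the 89 reached 5 TPM (a transcript abundance scaled by length and relative within its library) in some library. By complex there were 37 genes for complex I, 5 for complex II, 10 for complex III, 19 for complex IV and 16 for ATP synthase, and 2 more (ATP5S and ATP5SL) carry the ATP5 name without being ATP synthase subunits. NDUFA4, a complex IV subunit that keeps a complex I name, and its paralog NDUFA4L2 were placed with complex IV.

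H1299 derives from a non-small cell lung carcinoma and HCC827 from a lung adenocarcinoma. Each was transfected with a control siRNA (siCTR) or with an siRNA against CDH3 (siCDH3), the gene of the junction protein P-cadherin, and total RNA was sequenced after 48 h. The 4 groups had 1 library each. No difference within a line therefore has a replicate check, and no p-value is given for one.

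The respiratory chain passes electrons from NADH (complex I) and succinate (complex II) through ubiquinone to complex III, and by cytochrome c to complex IV, which reduces oxygen. Complexes I, III and IV pump protons across the inner mitochondrial membrane, and ATP synthase uses that gradient to make ATP. Complex II is encoded wholly in the nucleus, whereas the other complexes also hold subunits encoded by mitochondrial DNA (mtDNA), so that transcripts of both genomes contribute to each of them. Nuclear subunit genes are known targets of the factors NRF1, GABPA and YY1.

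CDH3 stood at 1.21 TPM in H1299 with siCTR and 0.169 with siCDH3, and at 173 and 78.8 TPM in HCC827. Thus 14.0% of the control level was left in H1299, from a low start, and 45.6% in HCC827. All 4 libraries came from cell lines, and the lines differed in marker genes: 3 of 6 epithelial markers reached a TPM of 5 in both H1299 libraries and 6 of 6 in both HCC827 libraries, and 3 of 3 and 1 of 3 mesenchymal markers did. Of 6 hematopoietic markers CD68 alone reached it, of 6 fibroblast markers COL1A1 alone and in HCC827 only, and of 4 endothelial markers 0. Read depth is unknown because TPM keeps none.

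Promoters of 69 of the 89 genes were matched in RefSeq (GRCh38.p14), each taken from 250 bases before to 50 after a start site. The letters GCATGCG, a core of the NRF1 motif, were found on either strand in 14 of the 69 (20.3%) against 4.74% of 27305 genes with a promoter. CCGGAAG, a core of the ETS motif that GABPA binds, was found in 20 (28.99%) against 12.2%, and AAGATGGC, a core of the YY1 motif, in 12 (17.4%) against 3.52%. At least 1 of the 3 was found in 36 of 69 promoters (52.2%) and in 18.5% of all genes' promoters. These 3 spellings were kept after 9 had been counted on these promoters, and the 6 others were also more frequent in the members, by 1.23 to 5.55 times. Genes with several start sites have several windows, and a match is only a match of letters. The 250 bases before the start site are printed for the members on which the results below turn: SDHD, lower in H1299 with siCDH3, NDUFA6 and NDUFS1, higher in both lines, and COX7B2, almost restricted to H1299. The sequences run 5′ to 3′ on the gene's strand, and capitals mark matches of the 3 spellings.
SDHD promoter, chr11:112086623-112086872, plus strand: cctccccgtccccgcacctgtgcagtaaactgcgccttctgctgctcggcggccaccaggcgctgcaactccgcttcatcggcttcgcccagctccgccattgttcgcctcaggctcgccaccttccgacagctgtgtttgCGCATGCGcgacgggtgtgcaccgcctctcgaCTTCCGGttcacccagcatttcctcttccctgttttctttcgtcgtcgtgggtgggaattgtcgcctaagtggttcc
NDUFA6 promoter, chr22:42090773-42091022, minus strand: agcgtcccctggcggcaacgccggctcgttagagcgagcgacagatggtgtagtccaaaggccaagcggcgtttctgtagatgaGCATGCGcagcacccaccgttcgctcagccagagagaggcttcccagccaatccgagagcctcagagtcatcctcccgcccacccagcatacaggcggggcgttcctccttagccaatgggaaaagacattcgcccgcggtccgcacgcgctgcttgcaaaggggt
NDUFS1 promoter, first of 2 windows, chr2:206159445-206159694, minus strand: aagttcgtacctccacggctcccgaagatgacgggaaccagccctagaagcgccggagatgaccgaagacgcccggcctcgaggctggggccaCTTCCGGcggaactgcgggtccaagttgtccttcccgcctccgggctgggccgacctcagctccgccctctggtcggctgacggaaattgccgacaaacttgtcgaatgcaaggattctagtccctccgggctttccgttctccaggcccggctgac
COX7B2 promoter, chr4:46909246-46909495, minus strand: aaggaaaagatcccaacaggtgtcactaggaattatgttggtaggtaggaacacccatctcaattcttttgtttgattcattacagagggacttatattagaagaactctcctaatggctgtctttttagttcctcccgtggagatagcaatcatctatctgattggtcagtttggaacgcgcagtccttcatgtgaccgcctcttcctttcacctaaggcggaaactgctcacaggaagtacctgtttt
The SDHD window held overlapping NRF1 letters on both strands, at bases 142 and 143, and ETS letters at base 174. NDUFA6 held the NRF1 letters at base 85 and, beyond the stretch shown, the YY1 letters at base 276. NDUFS1 held the ETS letters at base 94 of the first window, and COX7B2 held none of the 3.

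The 89 genes together took 1.27% of TPM in H1299 with siCTR, 1.30% with siCDH3, 0.856% in HCC827 with siCTR and 0.878% with siCDH3. The libraries of a line lay close together, and those of HCC827 were lower. The 13 subunits encoded by mtDNA took 10.1%, 12.8%, 27.6% and 26.4% in the same order, so their summed TPM was 7.93, 9.88, 32.3 and 30.0 times that of the nuclear genes. Because TPM is a share, the larger mtDNA share in HCC827 lowers every nuclear gene there. All mtDNA genes together, of which the 13 subunits are a part, took 13.5%, 16.4%, 36.2% and 34.4%. Taken over genes outside mtDNA, with all of these left out, the nuclear members held 1.47%, 1.55%, 1.34% and 1.34%. Most of the gap between the lines was then gone.

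**Figure D1:**
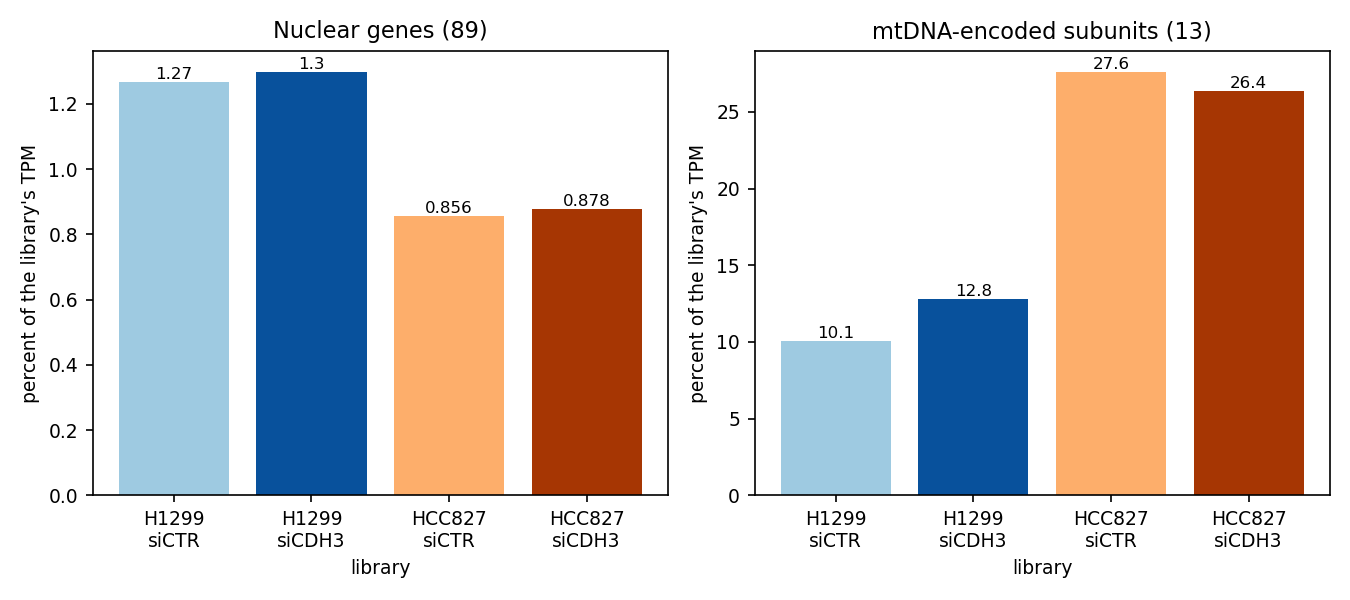
Bars give the percent of each library's TPM taken by the 89 nuclear genes (left) and by the 13 mtDNA-encoded subunits (right) in the 4 libraries, 1 library per bar. The nuclear share was 1.27% and 1.30% in H1299 and 0.856% and 0.878% in HCC827, while the mtDNA share ran the other way.

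Levels within a complex were uneven although its subunits are built into one particle. Over genes that reached 5 TPM in some library, the complex I genes in H1299 with siCTR ran from 20.2 TPM for NDUFA9 to 299.9 for NDUFA11, with a median of 70.5. Median TPM in that library was 129 for complex III, whose lowest and highest genes among those that reached 5 TPM were UQCR10 (67.9) and UQCRH, the hinge protein gene (418). The 4 genes of complex II that reached 5 TPM ran from SDHC (26.5) to SDHB (154). COX6A1, a complex IV subunit, was the most abundant member in both HCC827 libraries, at 750.0 and 710.0 TPM, against 635 and 655 in H1299. ATP5J2, which encodes subunit f of ATP synthase, led in H1299, at 733 TPM in both libraries, and stood at 403 and 437 in HCC827.

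**Figure D2:**
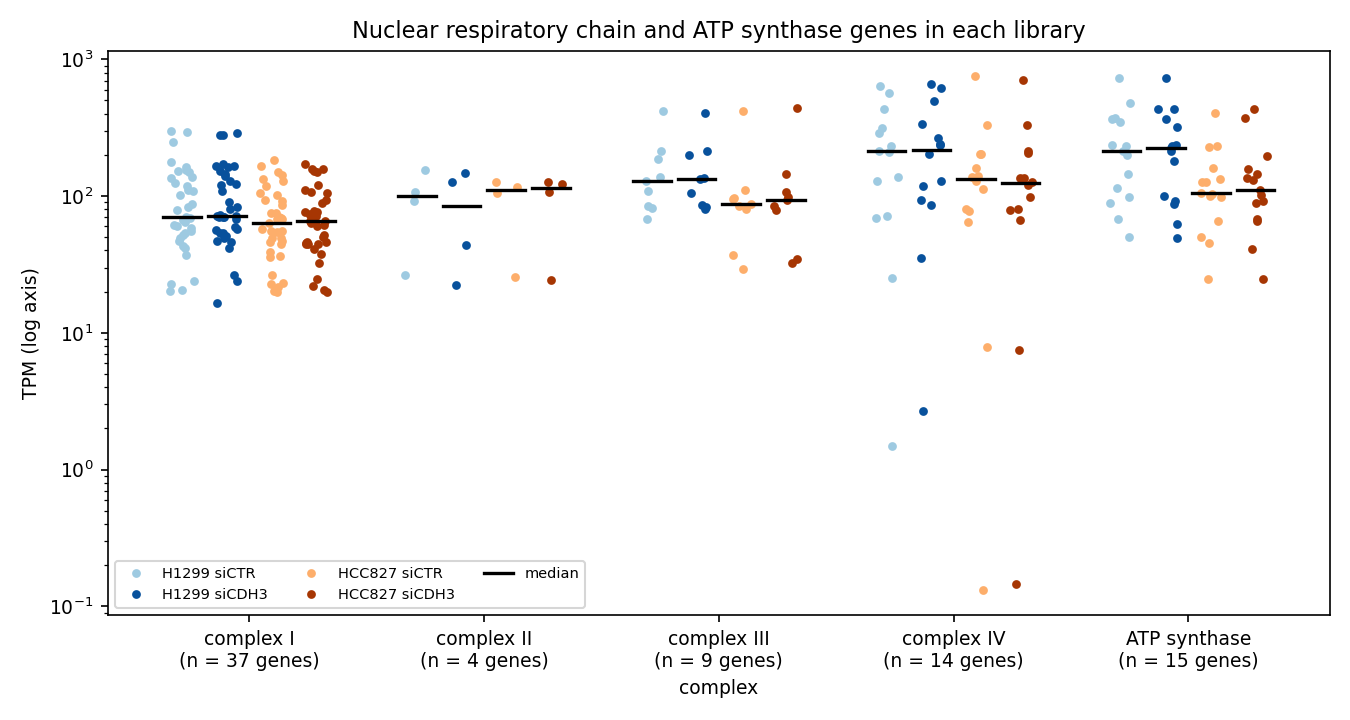
Each point is 1 gene in 1 library, in TPM on a log axis, grouped by complex and coloured by library, and bars mark the median over genes. The points show the 79 subunit genes that reached 5 TPM in some library. Medians of complexes I, III and IV and of ATP synthase were lower in the HCC827 libraries, and the complex IV gene COX7B2 sat near 0.1 TPM there.

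In several subunits 1 paralog carried nearly all of the signal. COX4I1 accounted for all of the COX4 signal and COX6A1 for all of the COX6A signal, with COX4I2 and COX6A2, the paralogs known from lung and from heart and muscle, listed at 0 in the 4 libraries. COX6B2, COX7A1, COX8C, UQCRHL and ATP5L2 stayed under 3 TPM in each library. The 3 genes for subunit c of ATP synthase encode the same mature protein, and ATP5G2 gave 69.2%, 66.2%, 61.1% and 59.6% of their sum in H1299 siCTR, H1299 siCDH3, HCC827 siCTR and HCC827 siCDH3. That share was lower in HCC827, where ATP5G1 gave 26.7% and 27.97% against 18.3% and 20.8% in H1299. COX7A2L, a COX7A-related factor that binds complexes III and IV, gave 48.1% and 47.7% of the COX7A family in H1299 and 63.4% and 60.7% in HCC827.

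Silencing of CDH3 left this gene set nearly level in H1299. Log2 ratios of TPM + 1 were taken where either library compared reached 5 TPM, and a log2 ratio of 1 is 2-fold. Of 80 members tested, 0 were 2-fold higher, against 0.878% of all 11622 genes tested, and 1, SDHD, was 2-fold lower, against 1.58%. With 80 members a share that small corresponds to about 1 gene, so the counts do not stand off from the rest. At 1.5-fold, 3 members were higher (NDUFA3, NDUFA6 and NDUFS1; 3.21% of all genes) and 2 lower (NDUFB5 and SDHD; 7.11%). The members' median log2 ratio was 0.03 and that of all genes -0.11, and 67 of the 80 lay above the median of all genes. The members have shorter transcripts than the genes tested, with a median length of 641.5 against 946.75 bases, and a trend on length and GC content held 9.67% of the variance of all ratios in H1299. With that trend removed the medians were -0.02 and -0.11.

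HCC827 showed a similar absence of large differences. Of 80 members tested, 0 were 2-fold higher (1.01% of 11043 genes) and 0 were 2-fold lower (0.833%). At 1.5-fold, 4 were higher (ATP5B, CYC1, NDUFA6 and NDUFS8; 3.35% of all genes) and 1, NDUFV1, was lower (2.54%). The median log2 ratio was 0.03 for members and 0.03 for all genes. In each line 62 of the 80 members (77.5%) stayed within 0.25 log2 units of 0, whereas 57.5% of all genes did so in H1299 and 75.3% in HCC827.

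**Figure D3:**
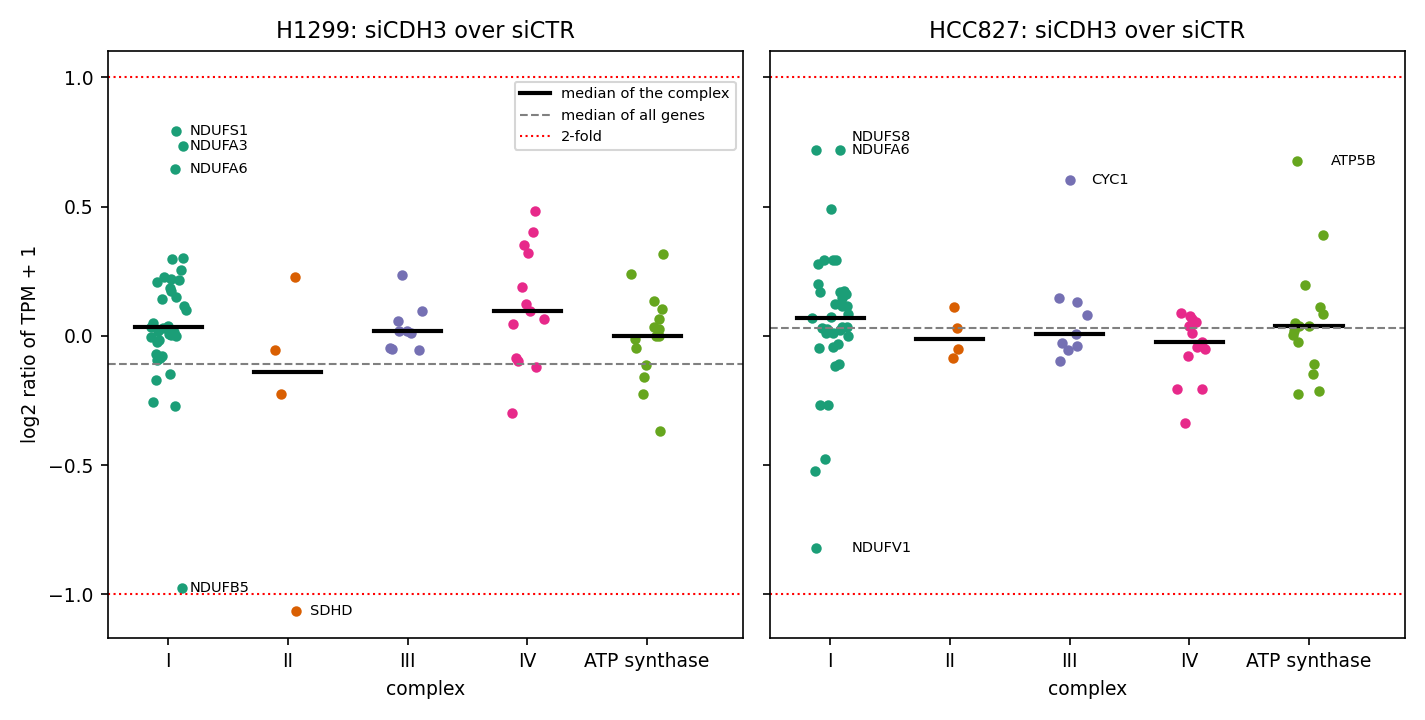
Log2 ratios of TPM + 1, siCDH3 over siCTR, for each subunit gene tested in H1299 (left) and HCC827 (right), by complex. Black bars are medians of a complex, the dashed line is the median of all genes and dotted lines mark 2-fold. Labelled genes passed 1.5-fold, and SDHD in H1299 was the one below the dotted line.

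By complex, the medians in H1299 were 0.03 for complex I, -0.14 for complex II, 0.02 for complex III, 0.10 for complex IV and 0.00 for ATP synthase. In HCC827 they were 0.07, -0.01, 0.01, -0.02 and 0.04. No complex median differed from 0 by more than 0.14 log2 units in either line. The median of all genes was -0.11 in H1299, and the complex medians minus it were 0.14, -0.03, 0.13, 0.20 and 0.11 in the same order. In HCC827 these differences ran from -0.05 for complex IV to 0.04 for complex I. Individual genes departed further, and they are taken in order of the electron path.

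In complex I, 4 of 37 genes passed 1.5-fold in H1299 (3 higher, 1 lower) and 3 of 37 in HCC827 (2 higher, 1 lower). Over all genes 3.21% were higher and 7.11% lower in H1299, and 3.35% and 2.54% in HCC827. With 37 genes, counts this small do not stand off from those shares. NDUFS1, the largest iron-sulfur subunit of its NADH-oxidising arm, stood at 23.7 TPM with siCTR and 41.9 with siCDH3 in H1299, and at 22.9 and 32.6 in HCC827 (log2 ratios 0.79 and 0.49). Both ratios were above 0, as in 36 of the 79 members tested in both lines and in 2022 of 9724 genes. Each ratio rests on 1 library per group. NDUFA6, an accessory subunit, went from 43.0 to 67.9 TPM in H1299 and from 26.6 to 44.5 in HCC827 (0.65 and 0.72). NDUFA6 was the only 1 of the 79 members past 1.5-fold in the same direction in both lines. Of 9724 genes, 38 were higher and 60 lower in both by that rule, so this count does not stand off from the rest. NDUFA6 shares 0% of its 50-base words, in either orientation, with any other annotated transcript and NDUFS1 12.3%. An antisense transcript, NDUFA6-AS1, was listed at 5.37, 4.32, 2.02 and 1.81 TPM.

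NDUFV1, which binds NADH and flavin, was at 66.8 and 82.6 TPM in H1299 and at 165 and 93.0 in HCC827. The HCC827 control stood apart from the 3 other libraries. NDUFV2, its partner in the same module, differed little, at 152 and 145 TPM in H1299 and 101 and 111 in HCC827. NDUFS8, an iron-sulfur subunit next to the ubiquinone site, was at 119 and 128 TPM in H1299 and at 92.2 and 152.5 in HCC827 (log2 ratios 0.10 and 0.72). NDUFS3 and NDUFS7, of the same module, stayed within 1.5-fold, with ratios of 0.30 and 0.23 in H1299 and 0.02 and 0.29 in HCC827. NDUFS7 shares 44.6% of its 50-base words with other transcripts, so its level is uncertain.

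NDUFB5, a membrane-arm accessory subunit, was at 101.5 TPM with siCTR and 51.1 with siCDH3 in H1299, close to 2-fold, and at 36.4 and 44.8 in HCC827. The H1299 control was the high library. NDUFA3, another accessory subunit, moved the other way, from 41.5 to 69.8 TPM in H1299 and from 54.4 to 45 in HCC827. NDUFA12 stood at 136 and 163 TPM in H1299 and 129 and 89.7 in HCC827, and NDUFC2 at 47.2 and 47.2 and at 70.2 and 50.2. These genes share a complex but not a direction.

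In complex II, SDHD, which encodes the smaller membrane anchor, was at 92.4 TPM with siCTR and 43.6 with siCDH3 in H1299, and at 128 and 123 in HCC827. The H1299 siCDH3 library was the low one of the 4. Its log2 ratio of -1.06 in H1299 was just past 2-fold, NDUFB5 (-0.98) just inside it, and with the median of all genes set to 0 SDHD stood at -0.96. The 3 other subunits differed less: SDHA, the flavoprotein, had a ratio of 0.23, SDHB, the iron-sulfur protein, -0.05 and SDHC, the other anchor, -0.22. The names next to SDHD in RefSeq order were examined after its value was seen. TIMM8B, beside it, was at 71.3 and 33.7 TPM in H1299 and at 35.1 and 55.1 in HCC827, and C11orf57, the next gene on that side, was at 94.7 and 12.9 TPM in H1299 and at 56.2 and 60.0 in HCC827. Both were lower with siCDH3 in H1299, as SDHD was, and not in HCC827. IL18, on the other side of SDHD, was at 0.683 and 0.734 TPM in H1299 and at 27.6 and 20.5 in HCC827. Whether these values share a source was not tested. A second identifier carrying the SDHD name was listed at 0.131, 1.79, 0.867 and 0.126 TPM, and 13.6% of the 50-base words of SDHD occur in other genes.

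In complex III, 1 member stood out. CYC1, cytochrome c1, was at 187 and 200.3 TPM in H1299 and at 95.01 and 145 in HCC827 (log2 ratios 0.10 and 0.60). Other complex III subunits differed less: UQCRFS1, the Rieske iron-sulfur protein, had ratios of 0.02 and 0.15, UQCRC1 0.01 and 0.13, and UQCRC2 0.02 and -0.04. UQCRFS1 shares 17.4% of its 50-base words with other transcripts, and its pseudogene UQCRFS1P1 was listed at 20.3, 18.4, 8.02 and 8.19 TPM, so its own level is uncertain. In complex IV the largest ratios in H1299 were 0.48 for COX7B2 and -0.30 for COX7C, and in HCC827 0.09 for COX6B1 and -0.34 for COX7C. COX7C, a small membrane subunit, was thus lower in both lines, at 289 and 235 TPM in H1299 and at 160 and 126 in HCC827. In ATP synthase, ATP5B, the catalytic beta subunit, was at 366 and 432 TPM in H1299 and 232 and 371 in HCC827 (0.24 and 0.68). ATP5A1, the alpha subunit that alternates with it, had ratios of -0.16 and 0.20, and the gamma subunit gene ATP5C1 -0.05 and 0.08.

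**Figure D4:**
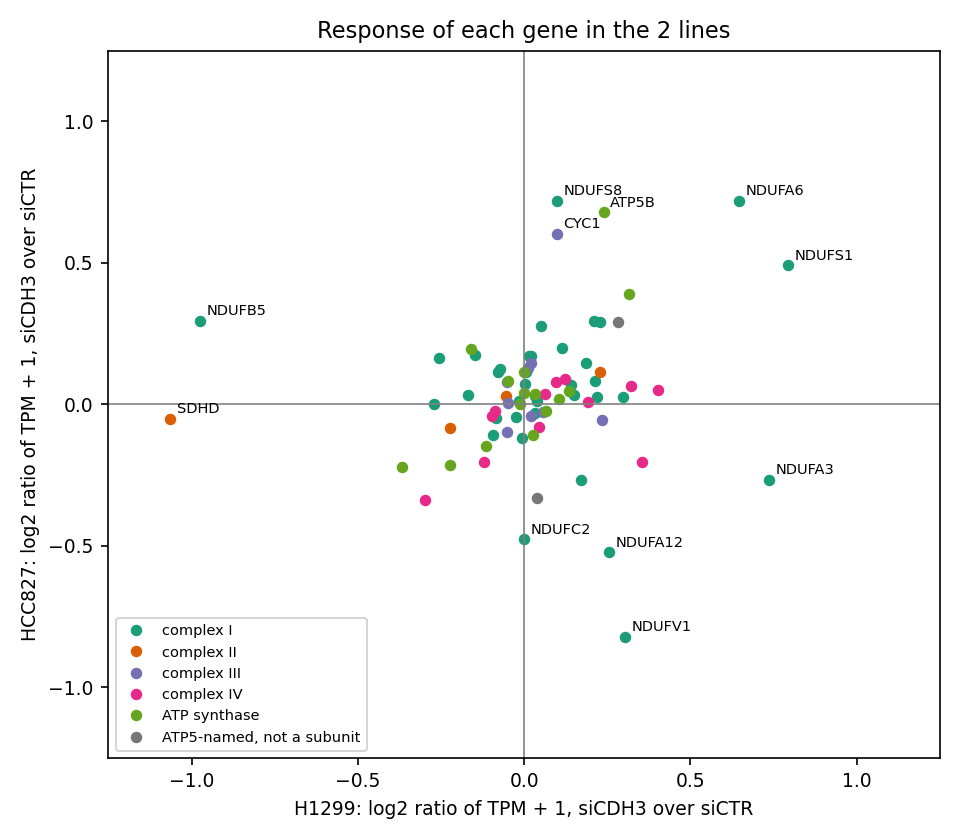
Each point is 1 of 79 members tested in both lines, with the log2 ratio of TPM + 1, siCDH3 over siCTR, in H1299 on the horizontal and in HCC827 on the vertical axis, coloured by complex. Most points sit near the origin, NDUFA6 and NDUFS1 lie at the upper right, and NDUFB5, NDUFV1 and NDUFA3 lie in the quadrants of opposite direction.

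Across the 79 members tested in both lines, 36 were above 0 in both, 16 below 0 in both and 27 in opposite directions. The share in the same direction was 65.8%, against 50.4% of 9724 genes, and Pearson's r over the members was 0.15 (Spearman's rho 0.22). These describe genes that share the same 4 libraries. limma (a linear model with moderated variances), fitted to log2(TPM + 1) with the line as a block, found 0 of 81 members changed with siRNA at a Benjamini-Hochberg adjusted p under 0.05. Of all 12941 genes it called 0% higher and 0.00773% lower, which is 1 gene. At an unadjusted p under 0.05 limma gave 2 members and 581 genes (4.49%). The 2 members were NDUFA6 (log2 difference 0.68, adjusted p = 0.933) and NDUFS1 (0.64, adjusted p = 0.950). With 1 residual degree of freedom this fit measures the response against its difference between the lines.

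The lines themselves differed more than the siRNAs. With siCTR, the median log2 ratio of HCC827 over H1299 was -0.56 over 81 members and -0.39 over all genes. By the 2-fold rule 2 members were higher in HCC827 (NDUFA4L2 and NDUFV1), against 13.5% of 12601 genes, and 15 were lower, against 27.8%. Both shares were below those of all genes. At 1.5-fold 38 (46.9%) were lower, against 42.4%. On TPM over genes outside mtDNA the medians were -0.13 and 0.06, with 3 members higher (20.8% of all genes) and 9 lower (18.2%). The 6 genes that left the lower side were ATP5C1, ATP5H, ATP5J, NDUFB1, NDUFS5 and UQCRC1. On deposited TPM of the siCDH3 libraries, 2 members were 2-fold higher in HCC827 (NDUFA4L2 and SDHD; 15.3% of 12542 genes) and 17 lower (24.2%). There NDUFV1 had a log2 ratio of 0.17, and NDUFB5, among the 15 lower with siCTR, -0.19.

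Leaving out mtDNA multiplies all other genes of a library by the same factor, so it shifts all ratios nearly alike. The complex medians therefore kept their order across the 2 scales, which is no added support for that order. They were 0.04 for complex II, -0.29 for complex I, -0.51 for complex IV, -0.67 for complex III and -0.73 for ATP synthase as deposited, and 0.47, 0.14, -0.07, -0.23 and -0.29 outside mtDNA. Of 15 ATP synthase genes 14 were below 0 on the first scale and 13 on the second. Of all genes 35.7% were above 0 on the first scale and 52.2% on the second. ATP5A1 stood at 481 and 431 TPM in H1299 and 127 and 146 in HCC827, the lowest ratio of that complex (-1.91). Its partner ATP5B, at 366 and 432 against 232 and 371, overlapped between the lines.

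COX7B2 was the member with the largest difference. This paralog of COX7B, known chiefly from testis, was at 25.1 and 35.5 TPM in H1299 and at 0.132 and 0.147 in HCC827. It gave 26.1% and 27.4% of the COX7B family in H1299 and 0.171% and 0.183% in HCC827, whereas COX7B itself was at 71.1 and 94.3 TPM and at 77.2 and 80.05. COX6B1, a subunit on the intermembrane-space side, was at 570 and 621 TPM in H1299 and 128 and 137 in HCC827. UQCRB, a complex III subunit at the ubiquinone site, was at 137 and 132 TPM and at 37.3 and 34.8. These 3 genes were named as extremes of the comparison between the lines. Other members, such as ATP5D and UQCRC1, also had separate levels in the lines, and the share over all genes was not counted. NDUFA4L2, a known target of hypoxia-inducible factor, ran the other way, at 1.499 and 2.68 TPM in H1299 and 7.81 and 7.51 in HCC827, with NDUFA4 at 68.8, 86.2, 64.2 and 67.2.

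By limma's cell line term, with siRNA as a term, 45 of 81 members differed at an adjusted p under 0.05, 5 higher in HCC827 (21.5% of 12941 genes) and 40 lower (41.3%). With the line as the only term, the count was 20 without the HCC827 siCTR library, where 37.5% of all genes were called, and 20 without the HCC827 siCDH3 library (37.8%). COX6B1 (log2 difference -2.16, limma adjusted p = 0.000373) and UQCRB (-1.87, adjusted p = 0.000571) were among the 40. COX7B2 and NDUFA4L2 reached 5 TPM only in the line where they are high, so their calls are no evidence of a difference. On TPM over genes outside mtDNA, 35 of 81 were called, 14 higher (33.7% of 13771 genes) and 21 lower (27.8%). The 2 libraries per line differ by siRNA, and the labels do not say whether they are separate cultures. With siRNA as a term, these p-values set the line difference against the difference in siRNA response between the lines. The variances were moderated over all genes. They do not measure the spread between replicate cultures of a line. In bulk RNA, fewer cells with a transcript and less of it per cell cannot be told apart.

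Of the other genes of the pathway, the 13 mtDNA-encoded subunits had a median log2 ratio of 0.28 with siCDH3 in H1299 and -0.06 in HCC827. MT-ATP6, an ATP synthase subunit, was the 1 past 2-fold, at 1788 and 6307 TPM in H1299 and 7135 and 6590 in HCC827. Of assembly factors 0 of 14 for complex I, 0 of 4 for complex II and 0 of 3 for ATP synthase passed 2-fold in either line. For complexes III and IV the counts were 0 of 5 and 0 of 16 in H1299 and 0 of 6 and 0 of 17 in HCC827. The same held for 0 of 4 electron carriers and 0 of 11 regulators. Over all genes 0.878% were 2-fold higher and 1.58% lower in H1299, and 1.01% and 0.833% in HCC827. With lists this short, counts of 0 do not stand off from those shares. At 1.5-fold, COX20 of complex IV assembly was lower in both lines (log2 ratios -0.61 and -0.69). TTC19 of complex III assembly was higher in H1299 (0.78) and at -0.04 in HCC827. The 11 regulators tested had a median log2 ratio of -0.09 in H1299, against -0.11 for all genes, and 6 lay above the latter. Those named next lay below it and do not stand for the list. Among regulators in H1299, TFAM, which packages and transcribes mtDNA, was at 20.2 and 11.2 TPM, GABPA at 15.4 and 9.68, YY1 at 113 and 85.4 and NRF1 at 13.2 and 11.4. In HCC827 they were at 17.3 and 14.99, 12.8 and 12.1, 59.6 and 48.7, and 9.27 and 9.8. limma called 0 genes of these lists for siRNA.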

How the data were processed

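RNA of H1299 and HCC827 cells given siCTR or siCDH3 for 48 h was sequenced in 4 libraries, 1 per group. The authors deposited TPM values per gene, and the build is hg19 per the submitters' processing notes. For the aligner, the counting tool, strandedness and depth the status is the same: not given in the sources used here. Because TPM is a share, a library in which mtDNA transcripts take more gives less to other genes.

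Log2 ratios used TPM + 1 for genes that reached 5 TPM in a library compared. limma 3.58.1 (R 4.3.3) was fitted on all genes passing in any of the 4 libraries with line and siRNA as terms, and the line pairs the libraries, as the labels name it. It was tested on simulated data. Alternatives were pseudocounts of 0.1 and 5, filters at 1 and 20 TPM or none, centring, quantile normalization, TPM outside mtDNA, removal of a length and GC trend, means, a 1.5-fold rule, limma with an intensity trend, and fits without a term or library. GENCODE 29, on a later build, gave transcript lengths, GC content and shared 50-base words. RefSeq gave promoters and gene order.

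Members and lists were chosen with earlier results of these data known. Genes named are those past 2-fold, extremes and most abundant members of each complex, catalytic subunits, paralog groups and the extremes between lines. One result under this rule is not reported here. NDUFA12, NDUFC2, NDUFA3, NDUFA6, MT-ATP6, COX20, TTC19, the neighbours of SDHD and the regulators named were chosen after their values were seen. So were the 1.5-fold and 0.1 log2 limits for opposite responses and the motif spellings. Pseudogene rows were left out.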

Additional observations from a re-analysis of the deposited data

Results flagged for a closer look

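Members with opposite responses in the lines were singled out, where 1 line was past 1.5-fold and the other at least 0.1 log2 units the other way. The difference between the lines was not tested, since each line has 1 library per siRNA. For NDUFA3 the log2 ratio was 0.74 in H1299 but -0.27 in HCC827, a difference of 1.003. NDUFB5 had -0.98 and 0.29, a difference of -1.27. NDUFV1 had 0.30 and -0.82, a difference of 1.12.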

How the results depend on the processing

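No member was called for siRNA by limma under the 8 alternatives. Without the replicate block the count was 0. Leaving out a library leaves that term no residual degree of freedom, so it was not run. For the line term, leaving out 1 library with the line as the only term gave 20 to 41 of 81 members, while the share of all genes called ran from 37.5% to 59.5%. In H1299, 1 member was 2-fold higher with no filter and with a filter at 1 TPM. That was the second identifier carrying the SDHD name, low at 0.131 and 1.79 TPM. It shares 74.5% of its 50-base words with other genes. With the median of all genes set to 0 and with quantile normalization 0 members were lower in H1299, and SDHD stood at -0.96 and -0.97. Setting the median to 0 moved the members' median to 0.14. The 1.5-fold rule gave 3 higher and 2 lower in H1299 and 4 and 1 in HCC827. Between the lines, 1 member was higher with a pseudocount of 5 and with a filter at 20 TPM, and 38 were lower by 1.5-fold (42.4% of all genes). There 9 were lower with centring and 9 with TPM outside mtDNA. The median was -0.44 with no filter, -0.17 with centring, -0.13 outside mtDNA and -0.18 with quantile normalization. The cause of these shifts was not tested. No called value changed sign under any alternative run. Low TPM has unknown precision.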
